A study of Rattus norvegicus with 57 samples.

Results

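The 6 genes Scnn1a, Scnn1b, Scnn1g, Hsd11b2, Nr3c2 and Sgk1, which encode the epithelial sodium channel and parts of its control by aldosterone, were followed in rat kidney after cisplatin. They were chosen by symbol, and all 6 were among the 11683 genes that passed the filter on dim probe sets. Cisplatin, a platinum compound that crosslinks DNA, was given once by intraperitoneal injection to 8-week-old male Han Wistar rats at 1 or 3 mg/kg in saline, and controls received saline. Kidneys were taken 3, 5, 8 or 26 days later. Each of the 57 arrays held RNA of a cortex-enriched kidney homogenate labelled as a separate biological replicate. The day 26 controls held 4 arrays, the day 5 rats given 1 mg/kg held 3, and every other group held 5, so the number of arrays limits the precision. No transgene, deletion or second treatment was named for any group. In such bulk tissue, fewer cells of a type and less RNA per cell cannot be told apart.

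The channel is built of 3 kinds of subunit, alpha (Scnn1a), beta (Scnn1b) and gamma (Scnn1g), and lets sodium enter from the urine across the apical membrane of the late distal tubule and the collecting duct. Aldosterone binds the mineralocorticoid receptor (Nr3c2), which then acts on transcription. Glucocorticoids bind that receptor too, and 11-beta-hydroxysteroid dehydrogenase type 2 (Hsd11b2) inactivates them in the same cells. The kinase encoded by Sgk1 is induced by these steroids and phosphorylates the ubiquitin ligase Nedd4-2, which otherwise removes the channel from the membrane.

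Promoters in RefSeq on the GRCr8 assembly were available for 3 of the 6 genes, Scnn1b, Scnn1g and Sgk1, and all of these are shown. None was available for Scnn1a, Hsd11b2 and Nr3c2. Sgk1 has 3 listed starts. Scnn1g and Scnn1b are next to each other on chromosome 1, with 0 protein-coding genes between them, and both lie on the plus strand. The lines give the 120 bases before each start, 5′ to 3′, and capitals mark the letters TATAAA and GGGCGG on either strand. The Scnn1g window is chr1:185736105-185736224 and the Scnn1b window is chr1:185861256-185861375. The Sgk1 windows lie on the minus strand at chr1:24807232-24807351, chr1:24805571-24805690 and chr1:24804832-24804951, from the most upstream start to the most downstream.
Scnn1g: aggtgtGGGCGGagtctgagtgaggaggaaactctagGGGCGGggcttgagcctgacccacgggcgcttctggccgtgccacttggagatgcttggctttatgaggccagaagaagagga
Scnn1b: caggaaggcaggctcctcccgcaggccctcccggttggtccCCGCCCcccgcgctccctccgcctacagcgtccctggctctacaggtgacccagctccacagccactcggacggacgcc
Sgk1 upstream start: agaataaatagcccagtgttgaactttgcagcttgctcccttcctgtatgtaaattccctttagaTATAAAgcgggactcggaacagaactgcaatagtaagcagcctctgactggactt
Sgk1 middle start: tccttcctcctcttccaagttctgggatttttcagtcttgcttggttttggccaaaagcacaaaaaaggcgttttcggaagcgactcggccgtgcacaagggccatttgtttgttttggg
Sgk1 downstream start: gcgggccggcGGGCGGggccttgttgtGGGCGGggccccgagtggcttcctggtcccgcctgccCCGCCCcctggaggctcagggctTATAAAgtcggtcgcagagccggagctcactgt

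The channel windows held GGGCGG but no TATAAA: 2 matches in Scnn1g and 1 in Scnn1b. The downstream Sgk1 window held 3 matches to GGGCGG and a TATAAA beginning 33 bases before the start, and the upstream Sgk1 window held a TATAAA beginning 55 bases before its start. Over 33469 promoter windows of the same length, GGGCGG was found in 23.7% and TATAAA in 6.66%. These motifs were picked after the sequences were seen. The steroid receptor half-site AGAACA was searched on both strands in the 250 bases before each start. So was the full palindromic glucocorticoid response element, 2 inverted half-sites with 3 bases between. They were found in 17.5% and 0.012% of all promoters and in 0 of the 5 promoters of these genes. The array does not tell which Sgk1 start was used.

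Signals are the MAS5 values that the authors deposited, scaled to a common level on every array. Changes are differences of log2(signal + 16) against the controls of the same day with the standard error of the fit. A gene was called where its limma p-value, adjusted by Benjamini-Hochberg over the 11683 genes, was under 0.05. Array medians ran from 20.3 to 26.2, and the ratio of the 3′ to the 5′ actin control probe sets, a measure of RNA integrity and labelling, from 4.47 to 8.58. Levels of different genes are not compared, since they come from different probe sets. Where groups are said not to overlap, the share of all genes that separate so is not given. Such statements describe the named gene or sum only. The summed signal of 7 proximal tubule markers was at least 14040 in the day 8 controls and at least 14850 at 3 mg/kg that day. That of 4 inner medulla markers was at least 531 and 451 in the same groups. These sums do not test the enrichment for cortex.

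On day 8 after 3 mg/kg, Hsd11b2, Nr3c2, Sgk1 and Scnn1b fell, while Scnn1a and Scnn1g were lower in the mean and did not pass the test. These 4 calls among 6 genes stand beside 37.3% of all genes called on that day, and 15.9% of all genes were called lower. The median change of the 6 genes was -0.48, and that of all genes was 0.04. On day 3 Sgk1 alone of the 6 was called, as lower, where 9.85% of all genes were called and 4.28% were called lower. On day 5 none of the 6 was called, beside 8.80% of all genes. The unadjusted p was under 0.05 for 2 of the 6 and for 2712 of the 11683 genes. On day 26 none was called, against 0.753% of all genes. None had an unadjusted p under 0.05 on that day, against 1857 of the 11683 genes.

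**Figure D1:**
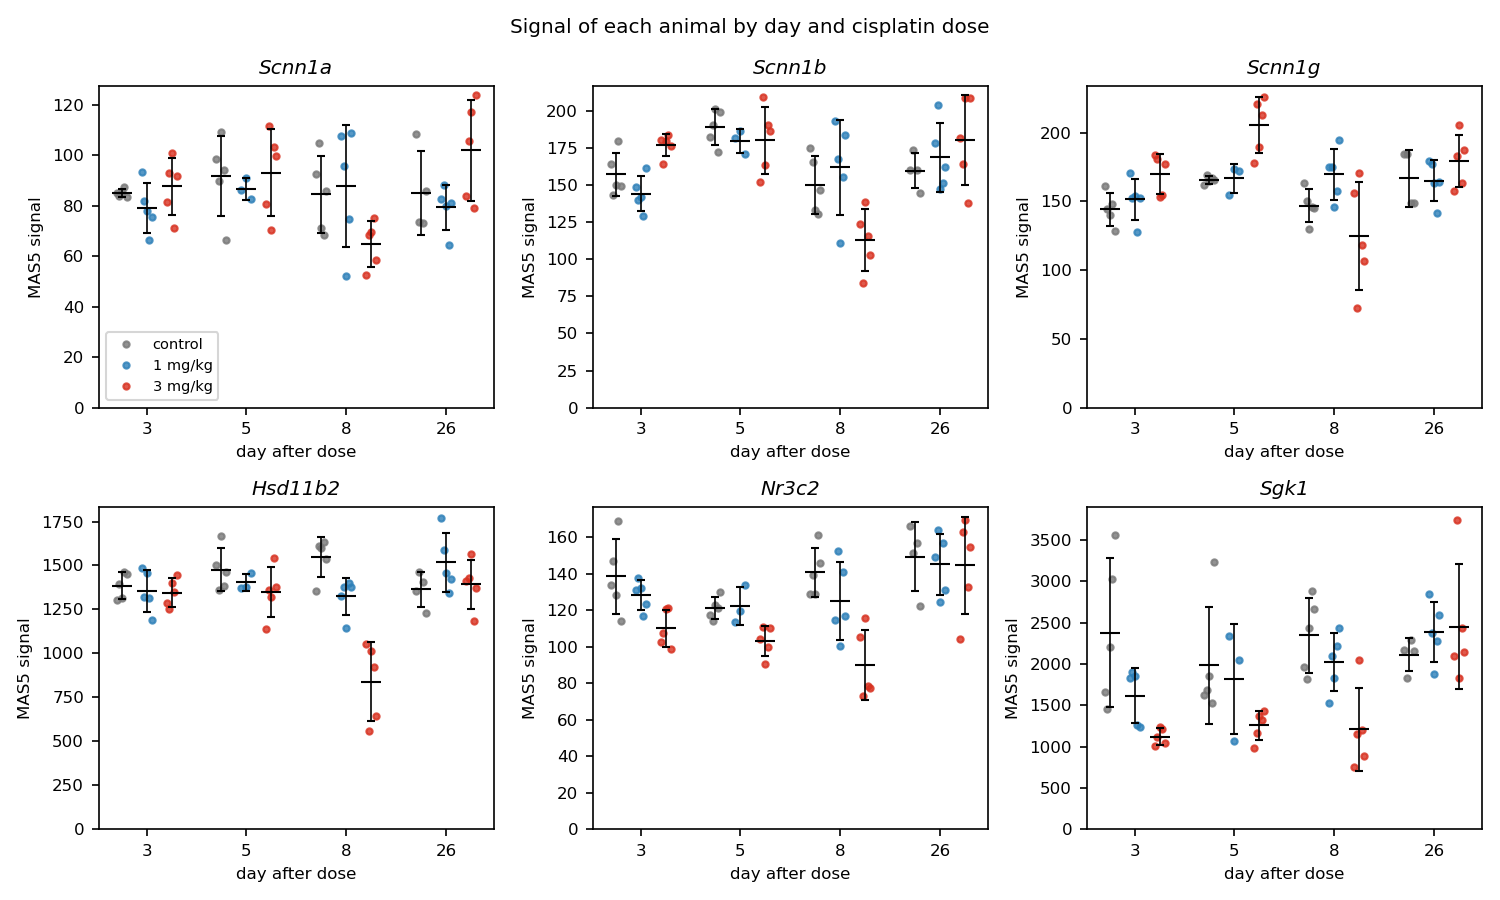
Deposited MAS5 signal (y axis, linear, from 0) of the 6 genes by day after the dose (x axis, categories); each point is an animal, grey for control, blue for 1 mg/kg and red for 3 mg/kg, and bars give the group mean and SD. The 5 red points on day 8 lie below all controls in Hsd11b2 and Nr3c2. Those of Sgk1 lie below all controls on days 3 and 5. The share of all genes that separate in this way is not given, so it is not a trait particular to these genes.

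Hsd11b2, the enzyme that keeps glucocorticoids from the receptor, had the lowest p of the 6 genes on day 8. Its signals in the 5 rats given 3 mg/kg were 1054, 557, 1014, 923 and 643, and in the 5 controls 1357, 1608, 1601, 1633 and 1537. Every treated rat lay below every control. The mean signal was 838 ± 224 (SD, n = 5) against 1547 ± 112 (n = 5), and the log2 change was -0.91 ± 0.10 (limma, adjusted p = 6.48e-10). Only 2.89% of all genes changed by more on that day. The fit pools the spread over all groups, while the log2 SD of Hsd11b2 was 0.41 in these treated rats and 0.11 in these controls. Over 14 settings other than leave-outs its adjusted p was at most 0.00255 (limma). For Nr3c2, Sgk1 and Scnn1b on day 8 it was at most 0.00553, 0.00917 and 0.0443 (limma).

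Hsd11b2 was near the control level on the other days. At 3 mg/kg the log2 change was -0.04 ± 0.10 (day 3), -0.13 ± 0.10 (day 5) and 0.03 ± 0.11 (day 26), with the groups overlapping each time (limma, adjusted p = 0.831, 0.470 and 0.932). Its 19 control signals over all days ran from 1232 to 1670, and all 5 signals at 3 mg/kg on day 8 lay below that range.

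Nr3c2, the mineralocorticoid receptor, was also lower in every rat of that group. Its signals at 3 mg/kg on day 8 were 106, 73.2, 116, 78.5 and 77.2, and in the controls 129, 139, 129, 161 and 146. Replicates 2, 4 and 5 were lowest, and replicates 1 and 3 were nearer to the controls. The mean was 90.1 ± 19.4 (SD, n = 5) against 141 ± 13.5 (n = 5), a log2 change of -0.58 ± 0.10 (limma, adjusted p = 1.44e-05).

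Earlier values of Nr3c2 at 3 mg/kg were lower in the mean without passing the test. On day 3 the signals were 103, 108, 121, 121 and 98.5 against 134, 147, 128, 169 and 114 in controls, with 3 of 5 treated rats below all controls. The change was -0.29 ± 0.10 (limma, adjusted p = 0.0668), and without control replicate 5 of that day, the lowest control, it was -0.35 with an adjusted p of 0.0391. On day 5 the signals were 105, 111, 90.7, 99.7 and 110.0 against controls of 117, 114, 123, 121 and 129.96. These groups did not overlap, yet the change of -0.20 ± 0.10 was not called (limma, adjusted p = 0.227). By day 26 the mean was 145 ± 26.6 (SD, n = 5) against 149 ± 18.9 (n = 4), and the change was -0.05 ± 0.11 (limma, adjusted p = 0.863).

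Sgk1, the steroid-induced kinase, was lower at 3 mg/kg from the first day sampled. On day 3 its signals were 1002, 1115, 1232, 1207 and 1045 in treated rats and 1658, 1453, 2199, 3026 and 3564 in controls. The groups did not overlap, and the controls varied far more than the treated rats. The mean was 1120 ± 99.8 (SD, n = 5) against 2380 ± 899 (n = 5), and the change was -0.998 ± 0.219 (limma, adjusted p = 0.00215). Only 0.30% of all genes changed by more on day 3.

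The actin 3′/5′ ratio also differed on day 3, from 5.74 to 6.02 in treated rats and from 4.48 to 5.08 in controls. With the log2 of that ratio as a covariate the Sgk1 change was -0.84 (limma, adjusted p = 0.0368). Of 6 principal cell markers, which mark the collecting duct cells that carry the channel, 1 was called lower on day 3, the water channel gene Aqp3 at -0.46 ± 0.14 (limma, adjusted p = 0.0234). Among all genes, 4.28% were called lower on that day. The summed signal of the 6 markers ran from 2037 to 2486 in treated rats and from 2168 to 2983 in controls. The sum of 5 markers of the distal convoluted and connecting tubule, none of them called, ran from 5229 to 5586 against 5817 to 6619, with no overlap. The part of these markers in the Sgk1 result was not tested.

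On day 5 the Sgk1 signals were 987, 1165, 1371, 1327 and 1427 at 3 mg/kg and 1624, 1686, 1858, 1521 and 3232 in controls. All treated rats were again below all controls, but the change of -0.61 ± 0.22 did not pass (limma, adjusted p = 0.0712). When only the arrays of the compared groups were fitted, it did (adjusted p = 0.0410), and without control replicate 5, the highest, it was -0.42 (adjusted p = 0.273). On day 8 the signals were 758, 1146, 2053, 1196 and 891 against 1958, 1814, 2438, 2878 and 2661. Replicate 3 lay within the control range and the other 4 treated rats were below all controls. The change on day 8 was -1.01 ± 0.22 (limma, adjusted p = 0.000227), and without replicate 3 it was -1.22.

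On day 26 the treated rats had Sgk1 signals of 2101, 3743, 1825, 2442 and 2141, and the 4 controls had 2173, 1825, 2288 and 2159. The groups overlapped, with 1 treated rat far above the rest, and the change was 0.17 ± 0.23 (limma, adjusted p = 0.767). Sgk1 was the most variable of the 6 genes: its SD within groups, pooled over the 57 arrays, was 0.36 on the log2 scale. A larger SD was found for 2.17% of all genes, and the median gene had 0.15. The other 5 genes had SDs of 0.17 to 0.21.

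Of the 3 channel subunits, beta was called on day 8. The Scnn1b signals at 3 mg/kg were 124, 84.1, 139, 116 and 103, and those of controls were 175, 166, 133, 131 and 147. Replicate 3 fell among the controls and the other 4 were below all of them. The change was -0.37 ± 0.10 (limma, adjusted p = 0.00409). On the other days its changes at 3 mg/kg were 0.16 ± 0.10 (day 3), -0.07 ± 0.10 (day 5) and 0.15 ± 0.11 (day 26), and the groups overlapped each time (limma, adjusted p = 0.350, 0.756 and 0.541).

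Scnn1a, the alpha subunit, had signals of 52.5, 68.4, 69.7, 74.99 and 58.6 at 3 mg/kg on day 8 and 92.6, 105, 71.0, 68.4 and 85.7 in controls. The groups overlapped, with 2 treated rats below all controls. The change was -0.31 ± 0.13, just outside the threshold (limma, adjusted p = 0.0518), and it passed in 9 of 24 alternative fits, with adjusted p from 0.0291 to 0.0498. At 3 mg/kg the log2 change of Scnn1a was 0.03 ± 0.13 (day 3), 0.02 ± 0.13 (day 5) and 0.22 ± 0.14 (day 26) (limma, adjusted p = 0.913, 0.952 and 0.432).

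Scnn1g, the gamma subunit, differed among the treated rats of day 8 more than among the controls. Its signals at 3 mg/kg were 156, 72.1, 170.5, 118 and 107, and those of controls were 163, 151, 130, 146 and 146. One treated rat lay above all controls and 3 lay below them. The change was -0.26 ± 0.11 (limma, adjusted p = 0.0518), and it rested on single animals. Without the highest rat, replicate 3, it was -0.37 (adjusted p = 0.00352), and without the lowest, replicate 2, it was -0.10 (adjusted p = 0.415).

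On day 5 Scnn1g went the other way. Its signals were 178, 221, 190, 213 and 226 at 3 mg/kg and 162, 169, 165, 168 and 165 in controls. All treated rats lay above all controls, and the change of 0.28 ± 0.11 was not called (limma, adjusted p = 0.0894). It passed with array weights (0.30, adjusted p = 0.0134) and with the compared groups alone (adjusted p = 0.0188). On days 3 and 26 the changes were 0.21 ± 0.11 and 0.10 ± 0.11 (limma, adjusted p = 0.198 and 0.721).

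A dimmer probe set for Scnn1g, with a mean signal of 40.9 against 163 for the one used, gave smaller changes in the same direction: 0.11 on day 5 (limma, adjusted p = 0.475) and -0.10 on day 8 (adjusted p = 0.386). On day 26 it gave -0.12, opposite to the brighter one, and neither was called (limma, adjusted p = 0.529 for the dimmer). A second probe set for Scnn1a, with a mean signal of 5.35, did not pass the filter. The other 4 genes had 1 probe set each.

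**Figure D2:**
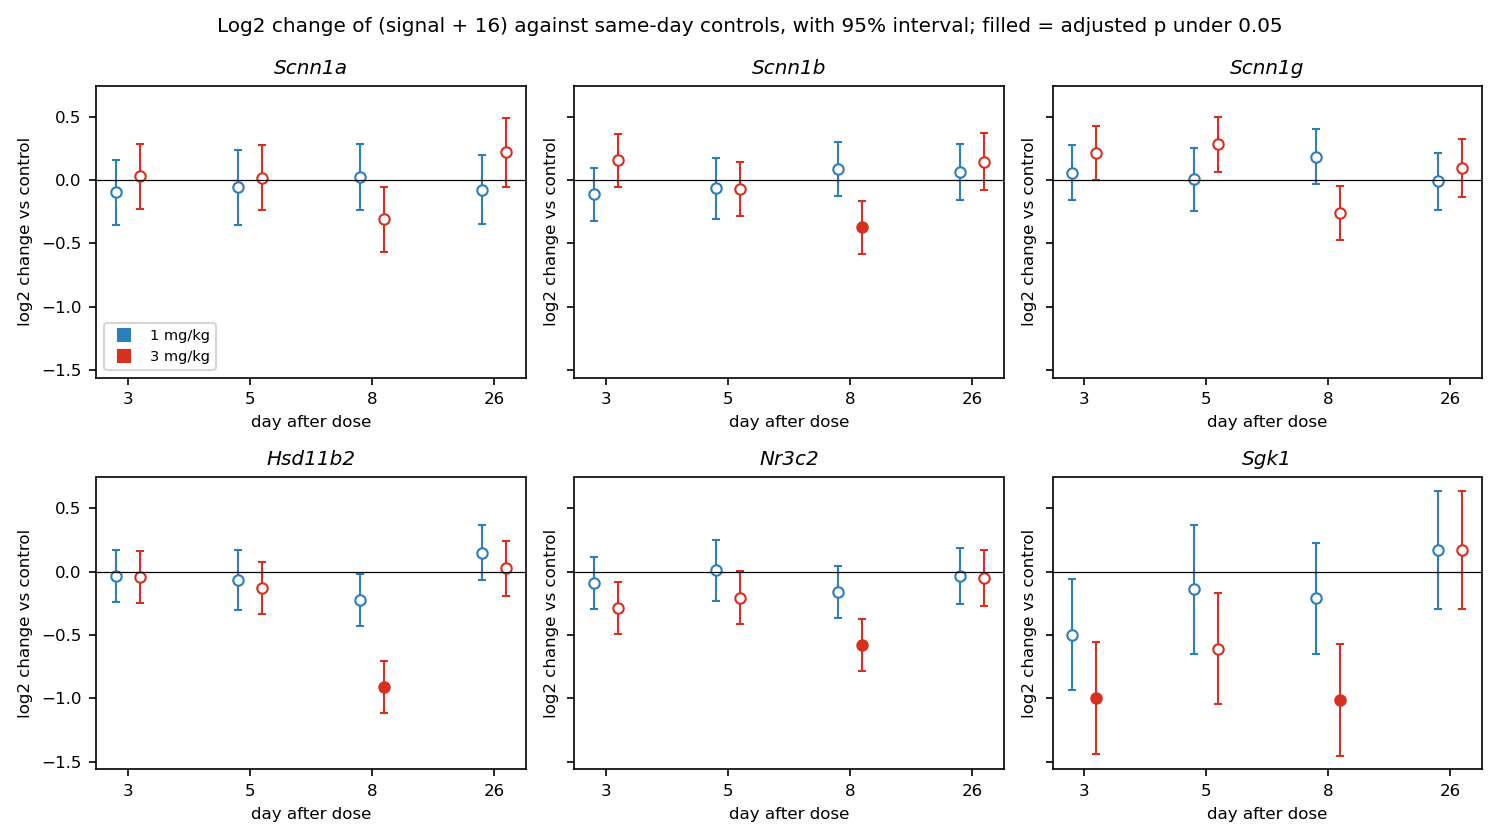
Change of log2(signal + 16) against the controls of the same day (y axis) by day (x axis, categories) for 1 mg/kg (blue) and 3 mg/kg (red), with the 95% interval of the fit; filled points have an adjusted p under 0.05. The filled points are Sgk1 on day 3 and Hsd11b2, Nr3c2, Sgk1 and Scnn1b on day 8, all at 3 mg/kg and below 0.

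At 1 mg/kg none of the 6 genes was called on any day. Among all genes the shares called at this dose were 0.0942% (day 3), 0.0171% (day 5), 0.522% (day 8) and 0.00856% (day 26). The unadjusted p was under 0.05 for 704 of the 11683 genes on day 3 and for 1510 on day 8. Of the 6, it was under 0.05 for 1 on day 3 and for 1 on day 8. These were Sgk1 on day 3, at 1617 ± 337 (SD, n = 5) and a change of -0.50 ± 0.22, and Hsd11b2 on day 8, at 1326 ± 105 (n = 5) and -0.22 ± 0.10 (limma, adjusted p = 0.750 and 0.346). The 95% interval of the Sgk1 change ran from -0.94 to -0.06, and that of Hsd11b2 from -0.43 to -0.02. On day 5 and day 26 none of the 6 had an unadjusted p under 0.05, against 376 and 776 of the 11683 genes.

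The doses were compared directly on each day. On day 8, 5 of the 6 genes were lower at 3 than at 1 mg/kg by the fit over all arrays, where 23.1% of all genes were called and 11.1% were called lower. Hsd11b2 differed by -0.69 ± 0.10 (limma, adjusted p = 1.00e-06), with no overlap between the groups, and Sgk1 by -0.80 ± 0.22 (adjusted p = 0.00498). The differences were -0.46 ± 0.10 for Scnn1b, -0.44 ± 0.11 for Scnn1g and -0.42 ± 0.10 for Nr3c2 (limma, adjusted p = 0.000783, 0.00149 and 0.00205). Scnn1a differed by -0.33 ± 0.13 and was not called (limma, adjusted p = 0.0513). In a fit of those 10 arrays alone, Hsd11b2 passed and the other 5 did not, with adjusted p of 0.0393 for Hsd11b2 and from 0.0622 to 0.157 for Sgk1, Scnn1b, Nr3c2 and Scnn1g. Scnn1g also depended on the probe set, at -0.15 on the dimmer one (limma, adjusted p = 0.211). It was -0.29 without 3 mg/kg replicate 2, and was called in all 10 fits that left out an array (limma, adjusted p up to 0.0226).

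On day 8 the 1 mg/kg group held an animal that was the lowest of its group in most of these genes. Only in Hsd11b2 was its gap to the nearest other flagged as large against the range of the group. Replicate 3 had the lowest signal of its 5 in Scnn1a (52.3, others 74.7 to 109), Scnn1b (111, others 156 to 193), Scnn1g (146, others 157 to 195), Hsd11b2 (1143, others 1329 to 1403) and Nr3c2 (100.5, others 115 to 153). Its Sgk1 signal of 1826 lay within the others. The same animal had the lowest signals of its group in Umod (1157, others 2424 to 3075), Slc12a3 (398, others 684 to 853) and Aqp2 (922, others 1086 to 1338). Its Havcr1 signal was 1085, with replicate 1 at 912 and the other 3 at 17.6 to 32.9. The part of these in the values of the 6 genes was not tested. Without replicate 3, Scnn1a differed between the doses by -0.48 (limma, adjusted p = 0.00269). The highest actin ratio of the series, 8.58, belonged to another animal of that group, replicate 1.

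On the other days 0 of the 6 genes were called between the doses. The shares of all genes called were 3.12% on day 3, 3.97% on day 5 and 0% on day 26. The unadjusted p was under 0.05 for 2178, 2204 and 1197 of the 11683 genes on those days. Of the 6, it was under 0.05 for 2, 1 and 1. On day 3 these were Sgk1, at -0.50 ± 0.22, and Scnn1b, at 0.27 ± 0.10, each with no overlap between the doses (limma, adjusted p = 0.200 and 0.142). The gaps were narrow. The highest Sgk1 signal at 3 mg/kg was 1232 and the lowest at 1 mg/kg was 1235. For Scnn1b the lowest at 3 mg/kg was 164 and the highest at 1 mg/kg was 161. Both genes passed when those 10 arrays were fitted alone (limma, adjusted p = 0.0341 and 0.0268). On day 5 it was Scnn1g, at 0.27 ± 0.12 (limma, adjusted p = 0.209), and on day 26 it was Scnn1a, at 0.30 ± 0.13 (adjusted p = 0.426).

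The change of the 3 mg/kg effect between successive days was tested as a difference of differences. From day 3 to day 5 none of the 6 was called, beside 1.52% of all genes. None of the 6 had an unadjusted p under 0.05, against 1873 of the 11683 genes. From day 5 to day 8 the effect became more negative for Hsd11b2, by -0.78 ± 0.14, and for Scnn1g, by -0.54 ± 0.15 (limma, adjusted p = 0.000157 and 0.0106), beside 16.3% of all genes called. The Scnn1g value was -0.21 on the dimmer probe set (adjusted p = 0.241), and with the compared groups alone its adjusted p was 0.0790. Sgk1, lower on both days, changed by -0.41 ± 0.31 (limma, adjusted p = 0.388).

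From day 8 to day 26 the effect rose for 5 of the 6 genes, and 15.0% of all genes were called. The rise was 1.19 ± 0.32 for Sgk1, 0.94 ± 0.15 for Hsd11b2 and 0.53 ± 0.15 for Nr3c2 (limma, adjusted p = 0.00710, 1.23e-05 and 0.0117). For Scnn1b and Scnn1a it was 0.52 ± 0.15 and 0.53 ± 0.19 (limma, adjusted p = 0.0143 and 0.0464). For Scnn1g the difference was 0.36 ± 0.16 and did not pass (limma, adjusted p = 0.116). The call of Scnn1a was lost in 12 of 19 fits that left out an array and in 7 of 14 other settings, with adjusted p up to 0.109. With the compared groups alone the calls of Scnn1a, Scnn1b and Nr3c2 were lost (adjusted p = 0.0908, 0.0697 and 0.0829). This comparison and the one before it share the day 8 arrays.

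The order of the 12 group means placed 3 mg/kg on day 8 last for Scnn1a, Scnn1b, Scnn1g, Hsd11b2 and Nr3c2. For Scnn1a, Scnn1b and Hsd11b2 the gap to the next group was larger than the larger SD of the pair, and for Scnn1g it was not. For Sgk1 the 3 groups given 3 mg/kg on days 3, 8 and 5 were lowest, at 1120, 1209 and 1255, with 1 mg/kg on day 3 next at 1617. The gap between 1255 and 1617 exceeded the larger SD, and the lowest 3 did not differ beyond theirs. For Nr3c2 the same 3 treated groups were lowest, at 90.1 on day 8, 103 on day 5 and 110.1 on day 3, below the day 5 controls at 121 by more than the larger SD. At the upper end, Scnn1g on day 5 after 3 mg/kg, at 206, exceeded the next group, 3 mg/kg on day 26 at 179.5, by more than the larger SD. No other neighbours in these orders were separated in this way.

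**Figure D3:**
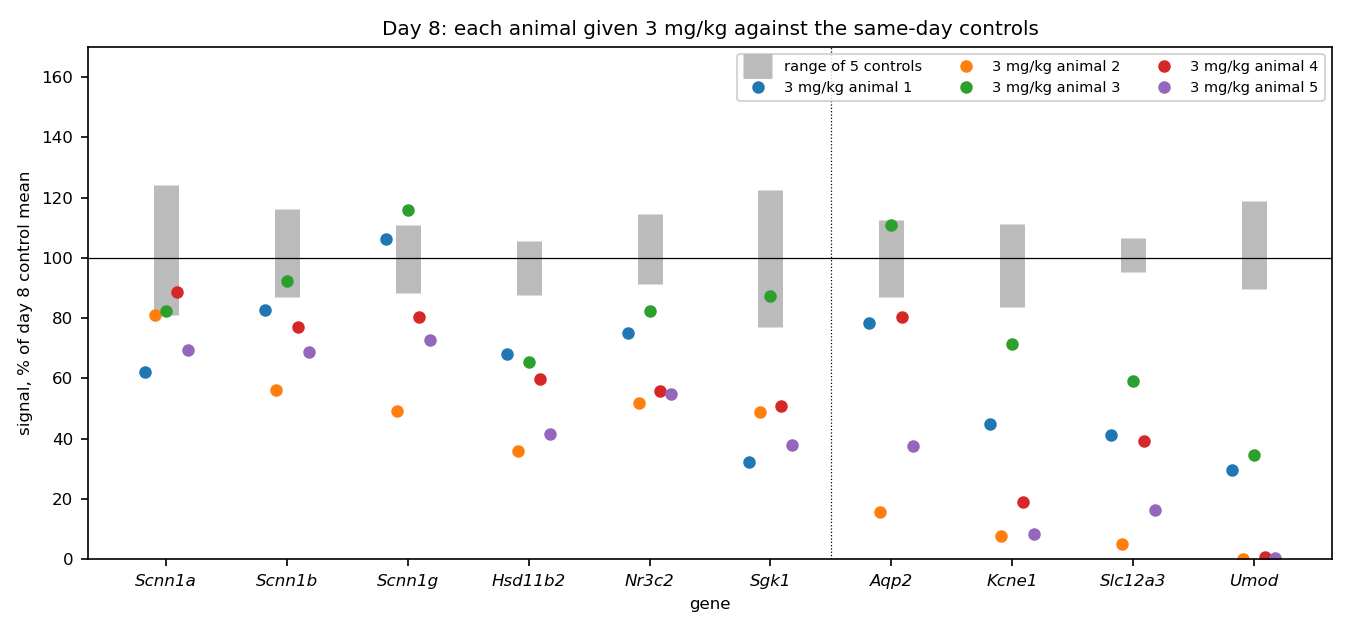
Signal of each rat given 3 mg/kg on day 8 as a percent of the mean of the 5 same-day controls (y axis, from 0) for the 6 genes and, right of the dotted line, 4 tubule genes; grey bars give the range of the controls, and each colour is an animal. Animal 2 had 36.0% of the control mean of Hsd11b2 and animal 3 had 65.5%; the same animals had 0.10% and 34.5% for Umod.

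The rats given 3 mg/kg differed among themselves on day 8. Replicate 2 had the lowest signal of the 5 in Scnn1b, Scnn1g, Hsd11b2 and Nr3c2, and replicate 3 had the highest in Scnn1b, Scnn1g, Nr3c2 and Sgk1. Scnn1a and Sgk1 were lowest in replicate 1, at 52.5 and 758, Scnn1a was highest in replicate 4, and Hsd11b2 was highest in replicate 1. The tubule genes Umod, Slc12a3, Aqp2 and Kcne1 and the injury marker Havcr1 are shown by animal after their values were seen, so their order supports nothing. Slc12a3 and Aqp2 were lowest in replicate 2 and highest in replicate 3. Umod, made in the thick ascending limb, had signals of 785, 2.68, 921, 21.6 and 5.37 in replicates 1 to 5, against 2393 to 3177 in controls; those of replicates 2 and 5 were under the offset of 16 and have no order. Havcr1, which injured proximal tubule makes, had 2177, 829.5, 679.7, 1581 and 1639.5, against 1.73 to 10.2. Aqp2, the water channel of the principal cell, had 979, 195, 1383, 1001 and 467, against 1084 to 1404. Their part in the changes of the 6 genes was not tested. Actin ratios did not set the groups apart on day 8, with means of 5.30 ± 0.53 (SD, n = 5) at 3 mg/kg and 5.32 ± 0.48 (n = 5) in controls.

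On day 8 at 3 mg/kg the called markers of the principal cell, the distal tubule and the thick ascending limb were mostly lower. The counts stand beside 37.3% of all genes called on that day and 15.9% of all genes called lower. Of 6 principal cell markers, 3 were called lower and none higher: Kcne1 at -1.42, Aqp2 at -0.89 and Aqp3 at -0.67. Their sum ran from 837 to 2511 at 3 mg/kg and from 2291 to 2701 in controls. Of 5 markers of the distal convoluted and connecting tubule, 4 were lower, among them Klk1 at -2.13, Slc8a1 at -2.03 and Slc12a3 at -1.93, and Trpv5 was higher at 1.13. Their sum was 947 to 3162 against 5613 to 6271, with no overlap. Of 6 thick ascending limb markers, 5 were lower, with Umod at -4.71, Ppp1r1a at -3.47 and Slc12a1 at -2.66.

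Of 6 intercalated cell markers, 2 were lower on day 8, Atp6v1b1 at -0.88 and Rhcg at -0.57, and Atp6v1g3 was higher at 0.54. Proximal tubule markers were 1 lower (Slc5a2, -1.25) and 1 higher (Aqp1, 0.41) of 7. Those of the inner medulla were 1 lower (Slc5a3, -0.57) and 1 higher (Aqp4, 0.95) of 4. Macrophage markers were higher for 5 of 6, led by Mrc1 at 0.97, Cd14 at 0.85 and Cd68 at 0.75, and fibroblast markers for 3 of 5, led by Dcn at 1.21. Endothelial markers were lower for 3 of 5 and podocyte markers for 2 of 3. Beside these counts, 37.3% of all genes were called on that day, with 2502 of the 11683 higher and 1858 lower. In lists this small, counts near those shares are not results about a cell type. The part of these markers in the results of the 6 genes was not tested.

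On day 3, when Sgk1 was called, Aqp3 was the one gene called in all the segment, stromal and immune lists. On day 5 the calls in these lists were Gata3, Ptger3 and Slc5a3, which were higher, and Atp6v1b1 and Calb1, which were lower; they are named after their values were seen. On day 26 no marker was called. Of all genes, 9.85%, 8.80% and 0.753% were called on days 3, 5 and 26.

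Other genes of the same system were taken from 7 lists by role. Of 56 genes listed, 47 were measured, and on day 8 at 3 mg/kg 17 were lower and 10 higher, which is 57.4% of them called beside 37.3% of all genes. Their median change was -0.07. On day 3, 5 were lower and 2 higher, which is 14.9% beside 9.85% of all genes. On day 5 there was 1 higher, 2.13% beside 8.80%, and on day 26 there was 1 lower, 2.13% beside 0.753%. Nothing particular to the lists was tested. At 1 mg/kg none of the 47 was called on any day. The lists were chosen with results of these data known.

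**Figure D4:**
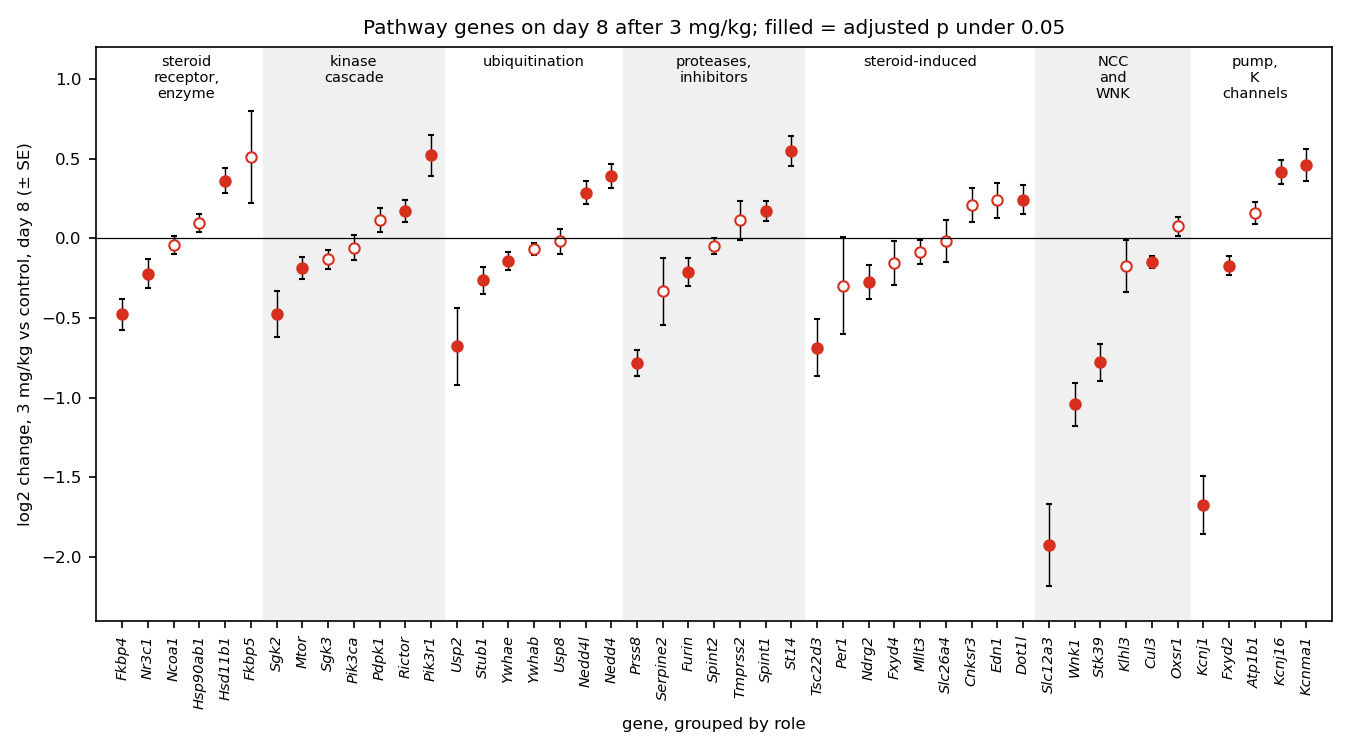
Change of log2(signal + 16) with its standard error on day 8 after 3 mg/kg (y axis) for the 47 measured genes of the 7 lists (x axis, shaded by role); filled points have an adjusted p under 0.05. Slc12a3 and Kcnj1 lie lowest, at -1.93 and -1.67, and St14 and Pik3r1 highest among the filled points, at 0.55 and 0.52.

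Among the steroid receptors and enzymes, 2 of 6 fell on day 8 and 1 rose. Fkbp4, a chaperone partner of these receptors, was at -0.48 ± 0.10, and Nr3c1, the glucocorticoid receptor, at -0.22 ± 0.09 (limma, adjusted p = 0.000137 and 0.0472). Hsd11b1, which regenerates active glucocorticoid and so works opposite to Hsd11b2, rose from a mean of 1930 to 2492, by 0.36 ± 0.08 (adjusted p = 0.000194). Of 7 genes of the kinase cascade, 2 fell, Sgk2 at -0.48 ± 0.15 and Mtor at -0.19 ± 0.07. A further 2 rose, Pik3r1, a regulatory subunit of phosphoinositide 3-kinase, at 0.52 ± 0.13 and Rictor at 0.17 ± 0.07 (limma, adjusted p = 0.00866, 0.0232, 0.00124 and 0.0467).

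Of the 7 ubiquitination genes, 3 fell and 2 rose on day 8. Nedd4l, which encodes Nedd4-2, rose from 219 to 272, by 0.28 ± 0.07, and its relative Nedd4 rose by 0.39 ± 0.08 (limma, adjusted p = 0.00161 and 4.74e-05). Usp2, a deubiquitinase, fell by 0.68 ± 0.24, and Stub1, which encodes the ubiquitin ligase CHIP, fell by 0.27 ± 0.09 (adjusted p = 0.0222 and 0.0121). On days 3, 5 and 26 Nedd4l was at -0.04, 0.16 and -0.11 and was not called (adjusted p = 0.765, 0.171 and 0.484).

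Among 7 proteases and inhibitors that act on the channel, 2 fell and 2 rose on day 8. Prss8, prostasin, a membrane protease that cleaves the gamma subunit, fell by 0.78 ± 0.08 from 491 to 284 (limma, adjusted p = 1.40e-10), and Furin fell by 0.21 ± 0.09 (adjusted p = 0.0485). St14, matriptase, rose by 0.55 ± 0.09, and the inhibitor gene Spint1 rose by 0.17 ± 0.07 (adjusted p = 4.68e-06 and 0.0345). On day 3 Prss8 was already lower, at -0.28 ± 0.08, and St14 higher, at 0.38 ± 0.09 (limma, adjusted p = 0.0236 and 0.00484). On days 5 and 26 Prss8 was at -0.18 and -0.29 without a call (adjusted p = 0.171 and 0.0773).

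A list of 9 genes downstream of steroids held both induced genes and Dot1l and Mllt3, whose products form a repressor of Scnn1a that aldosterone lowers. Of these 9, 2 fell and 1 rose on day 8. Tsc22d3, which encodes the glucocorticoid-induced leucine zipper, fell by 0.69 ± 0.18 from 719 to 451, and Ndrg2 fell by 0.28 ± 0.11 (limma, adjusted p = 0.00207 and 0.0405). Dot1l, a histone methyltransferase and part of that repressor, rose by 0.24 ± 0.09 (adjusted p = 0.0335). Tsc22d3 was at -0.38 on day 3, -0.50 on day 5 and 0.08 on day 26, none called (limma, adjusted p = 0.165, 0.0682 and 0.873). Dot1l was higher on day 3 too, at 0.40 ± 0.09 (adjusted p = 0.00306).

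Of 6 genes of the thiazide-sensitive cotransporter and its WNK kinases, 4 fell and none rose on day 8. Slc12a3, the cotransporter, had signals of 348, 43.6, 500, 333 and 137 at 3 mg/kg and 807 to 903 in controls, a change of -1.93 ± 0.25 (limma, adjusted p = 3.28e-08). Wnk1 changed by -1.04 ± 0.13, Stk39 by -0.78 ± 0.12 and Cul3 by -0.15 ± 0.04. On days 3, 5 and 26 Slc12a3 was at 0.08 ± 0.25, 0.09 ± 0.25 and 0.18 ± 0.27 and was not called (limma, adjusted p = 0.872, 0.880 and 0.785).

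Among 5 genes of the sodium pump and potassium channels, 2 fell and 2 rose on day 8. Kcnj1, the potassium channel ROMK, fell by 1.67 ± 0.18 from 305 to 98.1, and Fxyd2, the gamma subunit of the pump, by 0.17 ± 0.06 (limma, adjusted p = 2.84e-10 and 0.0179). Kcnma1 and Kcnj16 rose by 0.46 ± 0.10 and 0.42 ± 0.08 (adjusted p = 0.000223 and 1.72e-05). Kcnj1 was at -0.31, -0.25 and -0.44 on days 3, 5 and 26 and was not called (limma, adjusted p = 0.274, 0.437 and 0.237). The other calls in the 7 lists were Pdpk1 (-0.33), Rictor (-0.26), Stub1 (-0.27) and Cul3 (-0.13) on day 3, Kcnma1 (0.42) on day 5 and Hsp90ab1 (-0.24) on day 26.

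Across the 57 arrays the channel subunits varied together more closely than any of them did with Sgk1. Pearson's r of log2 values, which includes the differences between groups, was 0.78 for Scnn1b with Scnn1g, 0.68 for Scnn1a with Scnn1b and 0.55 for Scnn1a with Scnn1g. After the group means were subtracted these were 0.69, 0.57 and 0.38. For Scnn1b with Hsd11b2, r was 0.69, and 0.57 within groups. For Sgk1 with Scnn1a, Scnn1b and Scnn1g, r was 0.14, 0.17 and 0.04, and within groups -0.03, 0.03 and 0.03. For Sgk1 with Nr3c2, r was 0.65 over all arrays and 0.24 within groups. All such values share the arrays and their scaling.

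The genes whose profiles were most like each member, by r over the 57 arrays, were as follows. For Hsd11b2 they were Kcne1 (0.90), Egf (0.90) and Aif1l (0.90), with within-group values of 0.72 to 0.78. For Scnn1b they were Rhcg (0.82), Igfbp5 (0.82) and Gpd1l1 (0.80), and for Scnn1g they were Scnn1b (0.78), Slc12a3 (0.77) and Spink1l (0.75). Scnn1a had lower values, with Hipk2 (0.69), Scnn1b (0.68) and Add1 (0.68). Nr3c2 was nearest to Mitf (0.80), Prkag2 (0.77) and Prps2 (0.77). Sgk1 was nearest to Rin2 (0.86), Cpeb4 (0.83) and Zfp354a (0.81). Scnn1b, listed for Scnn1a and for Scnn1g, was the only gene that different members had in common here. Since r over all arrays includes the day 8 fall of the members, the changes of these genes on that day are no separate result. Kcne1, Rhcg, Slc12a3 and Scnn1b appear above with such changes because they are members or belong to the lists.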

How the data were processed

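RNA of 57 rat kidneys was measured on Affymetrix Rat 230 2.0 arrays. The deposited values are intensity values on a linear scale, which the submitters' processing notes name as output of MAS5; the software version is not given in the sources used here. In the deposited table the trimmed mean, without the lowest and highest 2% of probe sets, was 99.99 on every array. Groups, doses and days came from the labels. Arrays of a group had r of 0.961 to 0.993 with each other, so none were identical, and each counted as its own sample. Nothing says that the replicates of a group were handled apart, so p-values measure the spread between these animals and their processing together.

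Log2(signal + 16) was used, so changes of dim genes are understated. Of 31099 probe sets, 57 controls were left out. Probe sets above the 40th percentile of the array on at least 3 arrays were kept, and each gene was represented by its brightest, giving 11683 genes named through the platform annotation and RefSeq. A mean for each of 12 groups was fitted over all 57 arrays with limma 3.58.1 in R 4.3.3 (eBayes with trend, two-sided, Benjamini-Hochberg within each of 15 comparisons); the fit was tested on simulated data. Its standard errors pool the spread over all groups. The members and lists were chosen with earlier results of these data known. Named were all 6 members, up to 4 called genes of each pathway list for 3 mg/kg on day 8 and up to 2 otherwise, with Nedd4l, Prss8, Slc12a3, Tsc22d3 and Kcnj1 whatever their result, up to 3 per marker list, and the 3 nearest genes of each member. The alternatives were offsets, scaling, filters, probe set choice, variance models, the arrays fitted, a replicate block, the actin ratio and leaving out each array.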

Additional observations from a re-analysis of the deposited data

Results flagged for a closer look

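In 66 groups of 4 or 5 signals, 2 held an animal whose gap to the nearest other was large against the range of the group; chance flags about 1 in 20. Hsd11b2 at 1 mg/kg on day 8 had replicate 3 at 1143, with the others from 1329 to 1403. Sgk1 in the day 5 controls had replicate 5 at 3232, with the others from 1521 to 1858.

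The effect of 3 mg/kg differed between successive days in 7 of 18 tests of the difference (limma, adjusted p under 0.05). Of all genes, 1.52% were called from day 3 to day 5, 16.3% from day 5 to day 8 and 15.0% from day 8 to day 26. From day 5 to day 8 it changed by -0.54 for Scnn1g and -0.78 for Hsd11b2. From day 8 to day 26 it changed by 0.53 for Scnn1a, 0.52 for Scnn1b, 0.94 for Hsd11b2, 0.53 for Nr3c2 and 1.19 for Sgk1. The brighter of the Scnn1g probe sets was used here, and the dimmer gave -0.21. All 7 calls use the day 8 arrays. That of Scnn1a was lost in 19 of 33 alternatives. Those of Scnn1b, Nr3c2 and Scnn1g were lost with the compared groups alone.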

How the results depend on the processing

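Of 2298 values of the 6 genes under alternatives (90 results), 2158 kept their direction and side of the threshold, 28 were lost as calls, 33 became calls and 79 changed direction. None of the 79 was called either way, and the largest had a size of 0.21. The day 3 call of Sgk1 held in all 24 alternatives, as did the 4 calls of day 8 against control.

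Counts of members called moved by over 1.5 times as follows. With every kept probe set the count from day 5 to day 8 was 1 (otherwise 2). With array weights it was 2 for 3 mg/kg at day 3, 1 at day 5, and 1 between the doses at day 3. With the compared groups alone it was 2 at day 5 for 3 mg/kg, 2 and 1 between the doses at days 3 and 8, 1 from day 5 to day 8 and 2 from day 8 to day 26. On leaving out 1 array, the day 3 count at 3 mg/kg ran from 1 to 2. Of 36 pairs of samples with the same number, 6 had deviations that correlated over 0.1, in a range of -0.17 to 0.26. No reference for shared handling was at hand, so these values do not decide whether such samples share more than a number. With the replicate block the count became 5 for 3 mg/kg against control and 6 between the doses on day 8, Scnn1a added with adjusted p of 0.0498 and 0.0488, and no other count changed. Smaller moves came from Scnn1a and Scnn1g: over all alternatives the count for 3 mg/kg on day 8 was 4 to 6, and that from day 8 to day 26 was 4 in 6 settings besides the compared groups alone, each time with the call of Scnn1a lost (array weights, the actin covariate, no filter, every kept probe set, and both quantile normalization and 75th percentile centring; adjusted p = 0.0516 to 0.109). Against control on day 8, Scnn1a became a call in 5 settings and Scnn1g in 3, leave-outs aside. The cause of these moves was not tested.

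Directions that changed were these. With the actin ratio as a covariate Scnn1a was -0.21, -0.050 and -0.094 (3 mg/kg days 3 and 5, 1 mg/kg day 8), 0.037 (1 mg/kg day 5), -0.025 and -0.087 (between doses, days 3 and 5) and 0.16 (day 3 to 5), and Scnn1b was -0.011 (3 mg/kg day 3), 2.75e-05 (1 mg/kg day 5) and -0.024 (between doses, day 26). With array weights Scnn1b was 0.013 and Sgk1 -0.025 between doses on days 5 and 26. With centring on the 75th percentile Sgk1 was -0.011 between doses on day 26 and Scnn1a 0.000246 from day 3 to 5, with quantile normalization these were -0.017 and 0.00193, and Scnn1a at 1 mg/kg on day 8 was -0.00496. The dimmer Scnn1g probe set gave -0.12 (3 mg/kg day 26), -0.064 (1 mg/kg day 3), -0.048 and -0.016 (between doses, days 5 and 26) and -0.020 (day 8 to 26), and the mean of both gave -0.010 (3 mg/kg day 26) and -0.00192 (1 mg/kg day 3). With the replicate block Scnn1g at 1 mg/kg on day 5 was -0.011 and Scnn1b between doses on day 5 was 0.0029.

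Leaving out 1 array, these ranges crossed 0. At 1 mg/kg they were -0.071 to 0.00844 for Hsd11b2 on day 3, -0.049 to 0.057 for Nr3c2 on day 5 and -0.12 to 0.013 on day 26, -0.15 to 0.00105 for Scnn1a on day 5, -0.050 to 0.17 on day 8 and -0.13 to 0.027 on day 26. They were -0.000924 to 0.11 for Scnn1b on day 26, -0.019 to 0.057 for Scnn1g on day 5 and -0.058 to 0.038 on day 26, and -0.36 to 0.20 for Sgk1 on day 5. At 3 mg/kg they were -0.021 to 0.084 for Hsd11b2 and -0.13 to 0.050 for Nr3c2 on day 26, and -0.015 to 0.090 and -0.074 to 0.10 for Scnn1a on days 3 and 5. Between doses they were -0.051 to 0.029 for Hsd11b2 on day 3, -0.056 to 0.050 for Scnn1b on day 5, and -0.071 to 0.086 for Nr3c2 and -0.16 to 0.10 for Sgk1 on day 26. For Scnn1a from day 3 to 5 the range was -0.10 to 0.071.

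Counts over all genes moved by over 1.5 times in these settings. With array weights they were 1732 at 3 mg/kg on day 3 (otherwise 1151), 1047 between doses on day 3 (365) and 381 from day 3 to 5 (177). With the actin covariate these 3 were 499, 175 and 63. With the compared groups alone, counts at 3 mg/kg were 2553 on day 8 (4360) and 8 on day 26 (88), those between doses were 561, 183 and 535 on days 3, 5 and 8 (365, 464 and 2704), and those from day 5 to 8 and day 8 to 26 were 1088 and 868 (1909 and 1748). The day 26 count at 3 mg/kg ran from 8 to 229 over all alternatives, that between doses on day 26 from 0 to 56, and the day 8 count at 1 mg/kg from 4 to 127 (61). The day 3 count at 1 mg/kg was 7 with the mean of the probe sets and 22 with array weights (11). Without 3 mg/kg replicate 1 the day 5 count was 547 (1028). The number of arrays a group, 3 to 5, limits all values, and the offset limits those of dim genes.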
